A study of Mus musculus with 4 samples.

Results

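The Hox genes encode homeodomain transcription factors that set position along the head-to-tail axis, and 39 of the 55450 genes in the count tables belonged to them. All genes whose symbol was Hoxa, Hoxb, Hoxc or Hoxd followed by a number were taken, without the antisense transcripts of the same loci. They fell into 4 clusters of 11 (HoxA), 10 (HoxB), 9 (HoxC) and 9 (HoxD) genes. The study profiled single cells of mouse intestine and brain in 4 libraries, with 1 library each for untreated intestine, intestine after 1 week of NPs treatment, untreated brain and brain after 2 months of NPs treatment. NPs is the labels' abbreviation and is not spelled out there. All 4 libraries carried the genotype WT. The labels name BALB/c mice aged 5 weeks and ICR mice aged 6 months as sources, without saying which strain gave which tissue or how many animals were pooled. The series text speaks of colon, and the samples are labelled intestine.

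Hox genes lie in each cluster in the order in which they act along the body, with low-numbered members working towards the head and members 9 to 13 towards the tail. The pattern laid down in the embryo persists in adult gut, where the most posterior members mark the distal colon and rectum, and fibroblasts keep a positional Hox pattern of their own. Cdx factors and retinoic acid open the clusters in the embryo, Pbx and Meis proteins bind DNA with the Hox proteins, and Polycomb and Trithorax complexes hold the clusters silent or active afterwards.

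In the GRCm38 annotation the HoxA cluster spans 105 kb of chromosome 6 on the minus strand (52155590 to 52260880). HoxB spans 174 kb of chromosome 11 (96194316 to 96368256), HoxC 116 kb of chromosome 15 (102921103 to 103036852) and HoxD 96.8 kb of chromosome 2 (74668310 to 74765142), all on the plus strand. Promoter sequence from the RefSeq table for GRCm38.p6 was at hand for 22 of the 39 members. The 4 below are shown as examples of members that differed between the intestinal libraries, Hoxd13 and Hoxa13 being lower in the NPs library and Hoxb8 and Hoxd4 higher. They are not the 4 most extreme, since Hoxa13 differed least of the 6 lower members in absorptive cells. Each is the 250 bases before the start that RefSeq gives, 5′ to 3′ on the strand of the gene, and capitals mark CpG dinucleotides, the target of DNA methylation.
Hoxd13, chr2:74667975-74668224, plus strand: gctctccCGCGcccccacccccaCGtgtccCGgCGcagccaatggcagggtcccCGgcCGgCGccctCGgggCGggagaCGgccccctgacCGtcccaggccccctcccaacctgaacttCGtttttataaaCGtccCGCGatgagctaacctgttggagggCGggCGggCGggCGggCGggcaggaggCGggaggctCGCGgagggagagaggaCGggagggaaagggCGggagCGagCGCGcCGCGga
Hoxa13, chr6:52260881-52261130, minus strand: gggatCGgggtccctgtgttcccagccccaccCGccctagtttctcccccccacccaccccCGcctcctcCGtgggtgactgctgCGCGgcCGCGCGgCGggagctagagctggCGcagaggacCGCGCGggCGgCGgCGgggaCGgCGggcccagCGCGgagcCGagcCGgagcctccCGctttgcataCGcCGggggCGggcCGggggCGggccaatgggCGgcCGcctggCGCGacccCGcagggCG
Hoxb8, chr11:96281655-96281904, plus strand: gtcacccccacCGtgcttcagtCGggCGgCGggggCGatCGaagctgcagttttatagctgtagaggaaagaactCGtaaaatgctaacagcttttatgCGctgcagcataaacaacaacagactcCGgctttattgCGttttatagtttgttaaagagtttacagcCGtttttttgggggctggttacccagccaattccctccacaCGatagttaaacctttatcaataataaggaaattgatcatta
Hoxd4, chr2:74721728-74721977, plus strand: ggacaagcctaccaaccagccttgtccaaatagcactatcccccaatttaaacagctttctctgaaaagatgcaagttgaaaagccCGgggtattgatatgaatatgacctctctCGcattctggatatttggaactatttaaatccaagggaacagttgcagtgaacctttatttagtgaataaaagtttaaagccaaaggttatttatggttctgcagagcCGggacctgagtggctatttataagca

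The Hoxd13 window held 31 CpG dinucleotides at 74.4% GC and the Hoxa13 window 35 at 80% GC. The Hoxb8 window held 12 at 44.4% GC and the Hoxd4 window 3 at 40.4% GC. This contrast did not extend to all members: of the lower genes Hoxd11 had windows with 2 and 20 CpG dinucleotides and Hoxd12 had 10, and the higher Hoxb4 had 14. The median over the 24 windows of members was 12.5 CpG dinucleotides and 58.6% GC, against 6 and 52.4% over all 32851 windows of the table. The letters TTTATGG, a core bound by Cdx proteins, were searched on both strands and found in 1 of the 24 windows, that of Hoxd4, 45 bases before the start, and in 2.43% of all windows. TGATTNAT, a site shared by Pbx and Hox proteins, was found in 2 of the 24 (Hoxa2 and Hoxd11) and in 2.82% of all windows, with no overlap between the matches of the 2 motifs.

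Expression was counted as UMIs, which tag single RNA molecules at the 3′ end, so a level is given as CPM, the UMIs of a gene per 1000000 UMIs of a class of cells, and does not grow with the length of a gene. The 4 libraries held 63889853 to 127772838 UMIs, with 16850 and 10635 kept cells in untreated and NPs intestine and 11329 and 11946 in brain. More than 20% of the UMIs were mitochondrial in 16.7% of the barcodes of untreated intestine and in 46.5% of those of NPs intestine, and these were left out. Clusters were formed without the Hox genes, and 20 of 24 intestinal and 19 of 23 brain clusters could be named from marker genes. Libraries shared between 35 and 104 barcodes. Gata4, which marks the upper small intestine, had 7 UMIs in untreated and 4 in NPs intestine. Cells of the epithelium fell into different clusters in the 2 intestinal libraries: absorptive cells came from cluster 1 in the untreated library (3285 cells, 0 in NPs) and from clusters 4 and 7 in the NPs library (1783 and 1555). With 1 library per group there is no spread between replicates and no test, so ratios carry 95% intervals that cover counting error only. Treatment, animal, tissue sampling and library preparation cannot be told apart.

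Over all kept cells, Hox genes made up 497.5 CPM in untreated intestine (55465 UMIs) and 478.9 CPM in NPs intestine (52911 UMIs), and 4.40 and 4.83 CPM in brain (296 and 298 UMIs). The intestinal totals were close, and different members made them up. Of the 39 genes, 34 had a UMI in untreated and 36 in NPs intestine. Hoxc12 and Hoxc13 had none in either. Hoxb1, Hoxc11 and Hoxd3 had none in the untreated library alone, and Hoxd12 had none in the NPs library alone.

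Absorptive epithelial cells, which take up water and salts, carried a tail-end Hox set in the untreated library and a set centred on the middle of HoxB in the NPs library. Of the 39 members, 26 were measured there, meaning at least 20 UMIs in both libraries together, and the NPs library had 16 of them higher by 2-fold or more and 6 lower by as much. The same was true of 33% and 10.2% of the 15251 genes measured in these cells. The 16 higher members were 5 of HoxA, 8 of HoxB and 3 of HoxD, and the 6 lower ones were Hoxa13, Hoxb13, Hoxd10, Hoxd11, Hoxd12 and Hoxd13. The median log2 ratio of all measured genes was 0.56, towards the NPs library, and that of the 26 members was 2.21. After centring the ratios on that of all measured genes, 15 members were higher and 7 lower, beside 2815 and 2533 of the 15251 genes.

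**Figure D1:**
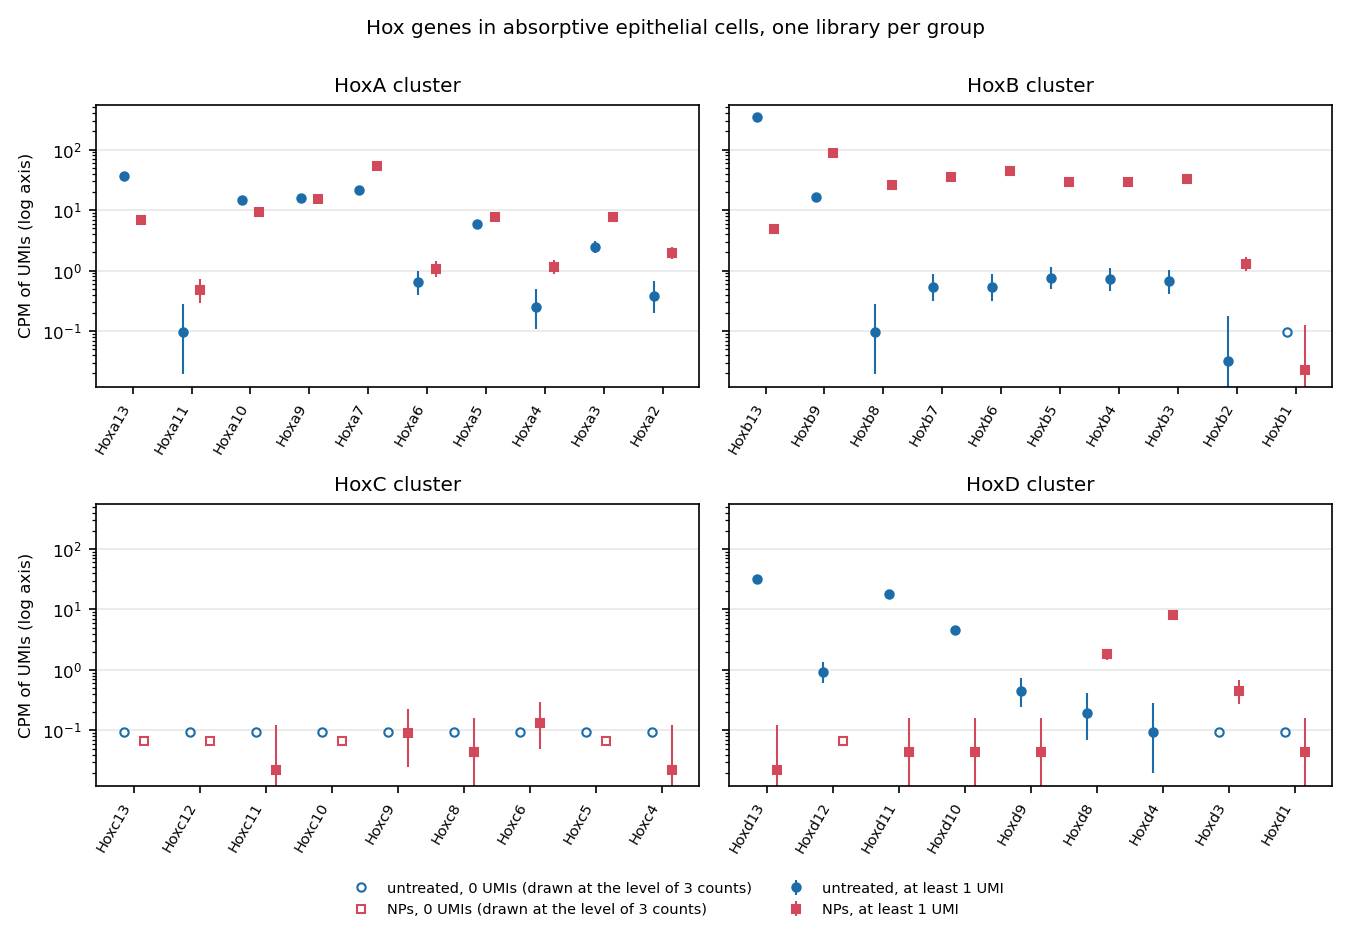
Level of Hox genes in absorptive epithelial cells of the untreated (circles) and NPs (squares) intestinal libraries, in CPM of UMIs on a log axis, with genes from posterior to anterior and 95% counting intervals; open symbols mark 0 UMIs and stand at the level of 3 counts. Hoxb13 stood at 340.7 CPM in the untreated and 4.86 CPM in the NPs library, Hoxb3 to Hoxb8 stood between 0.0957 and 0.766 CPM in the untreated library and between 26.1 and 44.4 CPM in the NPs library, and HoxC was near 0 in both.

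In HoxB the last gene and the middle genes differed in opposite directions. Hoxb13 (chromosome 11, 96194316 to 96197447), the member known from the distal colon, rectum and prostate, was at 340.7 CPM in untreated absorptive cells (10679 UMIs, 334 to 347) and at 4.86 CPM in the NPs library (217 UMIs, 4.23 to 5.55). This was a 70.1-fold lower level (61.3 to 80.6). Hoxb9 (96271457 to 96276595), its nearest neighbour within the cluster, went the other way, with 16.7 CPM (522 UMIs) in the untreated and 86.9 CPM (3879 UMIs) in the NPs library, 5.22-fold higher (4.76 to 5.725). Hoxb8 (96281905 to 96285315) had 3 UMIs in untreated absorptive cells and 1167 in the NPs library (26.1 CPM), a ratio of 273 (93.2 to 1326). Hoxb6 (96292476 to 96301569), with 17 and 1982 UMIs, was 81.8-fold higher (50.97 to 141). Hoxb7, Hoxb5, Hoxb4 and Hoxb3 were 37.4- to 66.0-fold higher, each with 17 to 24 untreated UMIs. Hoxb2 had 1 and 58 UMIs (ratio 40.7, 7.02 to 1635), and Hoxb1 had 0 and 1.

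HoxD showed the same split between its ends at lower levels. Hoxd13 (chromosome 2, 74668310 to 74671599), the last gene of the cluster and known from the hindgut, limbs and genital tubercle, was at 31.3 CPM in untreated absorptive cells (981 UMIs) and had 1 UMI in the NPs library, a ratio of 1398-fold lower (250.3 to 55260). Hoxd11 (74679557 to 74687016) had 558 and 2 UMIs, or 17.8 and 0.0448 CPM, 398-fold lower (109.5 to 3291). Hoxd10 (74691924 to 74695105) had 144 and 2 UMIs, 103-fold lower (27.9 to 855). Hoxd12 had 29 and 0 UMIs, at least 13.8-fold lower against 3 counts. Values given as at least a fold put 3 counts in place of 0 and are not interval limits, the limit here being 10.5. Hoxd9, at 14 and 2 UMIs, was below the minimum for a ratio. Beyond it the order turned: Hoxd8 had 6 and 81 UMIs (9.48-fold higher, 4.17 to 26.6), Hoxd4 (74711929 to 74729160) 3 and 360 UMIs (ratio 84.2, 28.6 to 410.3) and Hoxd3 0 and 20 UMIs (at least 4.68-fold higher). Evx2, the gene that neighbours Hoxd13 outside the cluster, was looked at after these values were seen. Over kept cells of all classes it had 106 UMIs in the untreated and 0 in the NPs library. In absorptive cells alone it was below the minimum for a ratio.

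HoxA differed less, and its ratios did not follow the gene order throughout. Hoxa13 (chromosome 6, 52257694 to 52260880), the partner of Hoxd13 in hindgut development, was at 36.8 CPM in untreated absorptive cells (1153 UMIs) and 6.79 CPM in the NPs library (303 UMIs), 5.42-fold lower (4.77 to 6.17). Hoxa10 (52231197 to 52240854), at 14.7 and 9.45 CPM, was 1.56-fold lower (1.36 to 1.78). Hoxa9 (52223100 to 52231089) was at 15.6 CPM (490 UMIs) and 15.03 CPM (671 UMIs), and the interval of its ratio included 1 (0.854 to 1.08). Hoxa7 (52214491 to 52221854), the most abundant HoxA member of the NPs library, was at 21.2 and 53.9 CPM, 2.55-fold higher (2.34 to 2.78). Its log2 ratio of 1.35 was 0.52 where cells with over 10% mitochondrial UMIs were left out and 0.79 after centring on the median of all genes, both under 2-fold. Hoxa5 was 1.29-fold higher (1.08 to 1.56) and Hoxa6 1.68-fold (0.981 to 3.00). Hoxa3 (3.08-fold), Hoxa4 (4.56-fold) and Hoxa2 (5.15-fold) were higher, on 8 to 78 untreated UMIs. The log2 ratio of Hoxa3 was 1.62, and its lowest over the alternatives was 0.59, under 2-fold. Hoxa11, between the lower Hoxa13 and Hoxa10, had a ratio of 4.91 (1.47 to 25.7) on 3 and 21 UMIs, and its log2 ratio was -0.26 where cells with over 10% mitochondrial UMIs were left out.

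HoxC was nearly silent. Its 9 genes together had 18 UMIs in untreated and 44 in NPs intestine, against 14330 and 17608 for HoxA. Untreated absorptive cells held 0 HoxC UMIs among 31340150, and NPs absorptive cells held 14 among 44654583. The leading members over all kept cells were Hoxc6 (1 and 12 UMIs), Hoxc9 (6 and 11), Hoxc10 (5 and 6) and Hoxc8 (3 and 4). Hoxc5 had 2 and 4 UMIs, Hoxc4 1 and 4 and Hoxc11 0 and 3.

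Goblet cells, which secrete mucus, differed in the same directions at both ends of HoxB and HoxD, with a smaller difference at Hoxb13. Of 27 measured members the NPs library had 14 higher by 2-fold or more and 6 lower, against 14.6% and 7.79% of all 15547 measured genes. The median log2 ratio was 1.29 for the members and 0.17 for all genes. Hoxb13 was at 328.5 CPM in untreated goblet cells (3878 UMIs) and 32.0 CPM in the NPs library (1175 UMIs), 10.3-fold lower (9.61 to 10.96). Hoxd13 was at 41.0 CPM (484 UMIs) and had 0 UMIs among 36711925 in the NPs library, at least 502-fold lower against 3 counts (interval from 406.5). Hoxd11 had 150 and 2 UMIs (233-fold lower, 63.45 to 1944), and Hoxd10 31 and 0 (at least 32.1-fold lower). Hoxb8 had 2 and 1349 UMIs (ratio 217, 59.9 to 1793), and Hoxd4, at least 40.6-fold higher, had 0 and 379. Hoxb4 was 29.3-fold higher (16.7 to 56.9) on 12 and 1093 UMIs. Hoxb9 was at 46.8 and 114 CPM, 2.44-fold higher (2.23 to 2.67). In HoxA, Hoxa13 was 3.51-fold lower (2.88 to 4.28), Hoxa11, Hoxa3 and Hoxa2 were 2.48- to 5.27-fold higher, and the other 7 measured members lay between 1.55-fold lower and 1.70-fold higher. Different clusters held these cells too, clusters 11 and 14 in the untreated library (1119 and 684 cells) and clusters 2 and 6 in the NPs library (2499 and 1595), and median depth was 1832 and 3132 UMIs per cell.

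Enteroendocrine cells, the hormone cells of the gut lining, came from a single cluster in both libraries (170 and 54 cells), led by the peptide hormones Pyy, Insl5 and Gcg. Of 12 measured members 7 were at least 2-fold higher and 2 lower in the NPs library, against 19.5% and 4.57% of 6723 measured genes. Hoxb13 was at 351 CPM (205 UMIs) and 22.7 CPM (12 UMIs), 15.5-fold lower (8.69 to 30.5), and Hoxa13 was 2.60-fold lower (1.05 to 7.26) on 20 and 7 UMIs. Hoxb8 had 0 UMIs in the untreated and 64 in the NPs library (121 CPM), at least 23.5-fold higher. Hoxb7, with 0 and 37 UMIs, was at least 13.6-fold higher, and Hoxb6, with 3 and 39, had a ratio of 14.3 (4.55 to 72.4). Hoxb3 and Hoxb4, each with 0 and 23 UMIs, were at least 8.44-fold higher. Hoxa7 was 4.61-fold higher (2.87 to 7.70) and Hoxb9 2.49-fold (1.83 to 3.425), with a lowest log2 ratio of 0.94 over the alternatives. Hoxa10 was at 63.4 and 73.6 CPM and Hoxa9 at 51.4 and 49.1 CPM, and the intervals of both ratios included 1. Cells of this 1 cluster differed between the libraries at Hoxb13 and Hoxb8 in the same directions as the absorptive cells. Their median depth was unlike, at 1156 UMIs per cell in the untreated and 7333 in the NPs library. In the untreated cells Hoxb13 was at 103% of the absorptive level, and 10 epithelial genes were at a median of 32.2%. Under 6 of the alternative settings this small class gave no value.

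**Figure D2:**
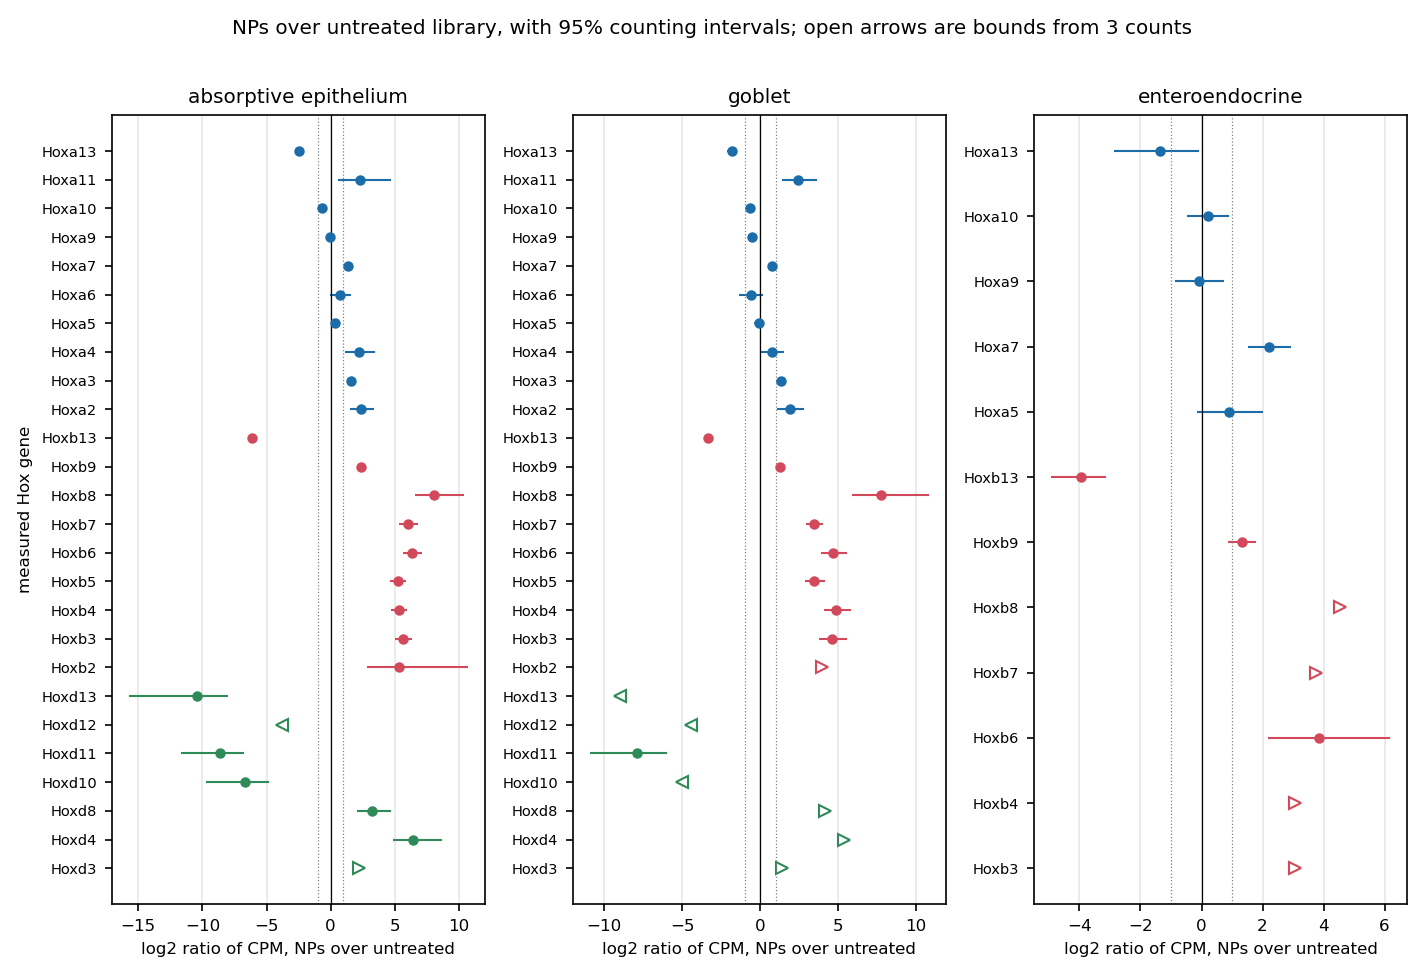
Ratio of the level in the NPs library to that in the untreated library for measured Hox genes in absorptive, goblet and enteroendocrine cells, on a log2 axis with 95% counting intervals; open arrows are bounds against 3 counts, dotted lines mark 2-fold. In all 3 classes Hoxa13 and Hoxb13 lie to the left of 0 and Hoxb3, Hoxb4, Hoxb6, Hoxb7, Hoxb8 and Hoxb9 to the right.

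Of the 4 unnamed clusters 3 had summed Hox levels within or above the range of the named epithelial classes. Their patterns went with the library. Untreated cells of cluster 8 stood at 787 CPM and of cluster 0 at 568 CPM, against 514.5 to 725 CPM in the named classes. NPs cells of cluster 3 stood at 639 CPM, against 407 to 1059 CPM. Cluster 8, led by Wfdc2, Aqp4 and Adh1 and made of 1420 untreated and 3 NPs cells, had Hoxb13 at 420 CPM (13791 UMIs), the highest level of any member in a named or unnamed group of over 50 cells. It also had Hoxd13 at 51.7 CPM, Hoxa7 at 64.0 CPM and Hoxa9 at 58.6 CPM. Cluster 0, of 3399 untreated cells with a median of 1230 UMIs and led by Wfdc2 beside the immune cell genes Ccl5, Gzma and Cd79a, had Hoxb13 at 321 CPM and Hoxd13 at 34.3 CPM. Cluster 3, with 1845 NPs and 20 untreated cells and led by genes that include Slc12a2 and Cftr, had Hoxa7 at 113 CPM, Hoxb9 at 98.5 CPM, Hoxa9 at 60.9 CPM and Hoxb13 at 21.2 CPM. The 20 untreated cells assigned to this cluster carried 29 UMIs of Hoxb13, or 340.9 CPM, against 340.7 CPM in untreated absorptive cells, and had 0 UMIs of Hoxb8 and Hoxb6.

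**Figure D3:**
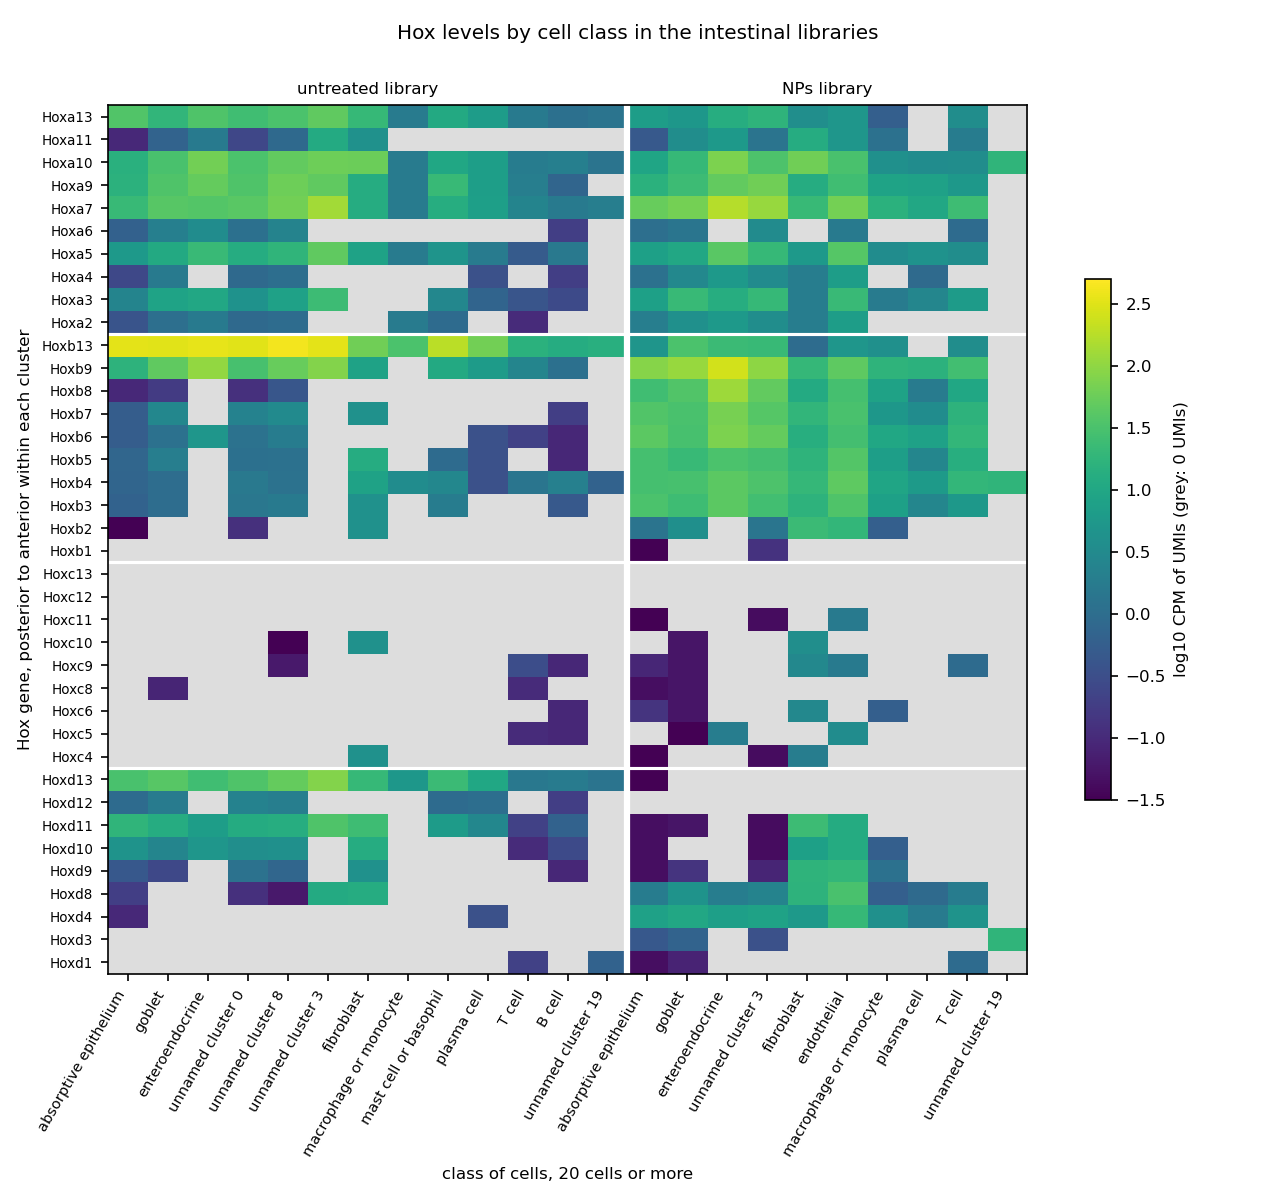
Level of Hox genes in every class with 20 cells or more in the 2 intestinal libraries, as log10 CPM of UMIs, with 0 UMIs in grey; rows run from posterior to anterior within each cluster of genes. Hoxb13 is the brightest row of the untreated library (341 CPM in absorptive and 351 CPM in enteroendocrine cells), and the rows from Hoxb9 to Hoxb3 are bright in the NPs library.

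Within the NPs library alone Hox levels also differed between the 2 clusters of absorptive cells. Cluster 7 of the absorptive cells (1555 cells) was set beside cluster 4 (1783 cells), a comparison added after the values were seen. Of 22 members with 20 UMIs or more in both together, 8 were at least 2-fold higher in cluster 7 and 3 at least 2-fold lower, against 13.4% and 4.31% of 14032 genes. Hoxb13 was at 0.587 CPM in cluster 7 and 8.46 CPM in cluster 4, 14.4-fold lower (8.07 to 28.35). Hoxa13 was at 1.66 and 11.1 CPM, 6.67-fold lower (4.66 to 9.84). Hoxa10 and Hoxa9 were 1.895- and 1.78-fold lower, and Hoxa7 was 1.51-fold higher (1.39 to 1.64). The order was not kept throughout, since the ratios of Hoxa6 (0.922, 0.496 to 1.69) and Hoxa5 (1.06, 0.853 to 1.32) had intervals that included 1. Hoxb8 was at 43.2 and 11.7 CPM, 3.69-fold higher (3.22 to 4.23), and Hoxb3, Hoxb4, Hoxb5, Hoxb6, Hoxb7 and Hoxb9 were 1.78- to 2.29-fold higher. Hoxd4 was 2.07-fold higher (1.67 to 2.59). The 2 clusters came from the same library, with median depths of 9665 and 10420 UMIs, and both were led by Reg3b, Car1 and Cyp2c55 among others. Goblet clusters 2 and 6 of that library, with unlike median depths of 1756 and 17150 UMIs, did not show this pattern. Of 23 members 3 were at least 2-fold higher in cluster 2 and 0 lower, against 14.8% and 2.71% of 14699 genes. Hoxa13 was 2.16-fold higher there (1.58 to 2.93), whereas Hoxb13 and Hoxb8 had ratios of 0.74 and 0.831.

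A split between Hoxb13 and the middle HoxB members was also seen cell by cell in goblet cells of the NPs library. It was not the same for all members. Hoxa7 was found more often in cells with Hoxb13. Its higher level in absorptive cluster 7, which had less Hoxb13, compares clusters and not single cells. Of 1355 cells with at least 10000 UMIs, each thinned to 10000, 243 had a Hoxb13 UMI. Hoxb8 was found in 6.58% of these (16 cells, 3.81 to 10.5%) and in 30.8% of the 1112 cells without Hoxb13 (28.1 to 33.7%). Hoxb7 was found in 4.53% and 30.2%, Hoxb6 in 4.12% and 24.4%, Hoxb4 in 2.88% and 24.4%, and Hoxd4 in 0.412% and 10.9%. Of the HoxA members 4 went the other way: Hoxa13 was found in 8.64% of cells with Hoxb13 (5.43 to 12.9%) and 3.15% of those without (2.2 to 4.35%), Hoxa10 in 28% and 12.3%, Hoxa9 in 32.5% and 11.1%, and Hoxa7 in 53.5% and 36.5%. The intervals overlapped for Hoxa11 (3.7% and 3.87%), Hoxa5 (11.1% and 7.19%), Hoxa4 (4.94% and 2.25%), Hoxa3 (20.6% and 17.4%) and Hoxa2 (3.29% and 3.96%). Hoxb9 differed little, at 58.8% (52.4 to 65.1%) and 66.5% (63.7 to 69.3%). The split was also present in other NPs cells of this depth. In 1684 absorptive cells, 74 with Hoxb13, Hoxb7 was found in 2.7% and 29.6% and Hoxb9 in 37.8% and 55.8%. The intervals there overlapped for Hoxb8 (12.2% and 18.9%) and Hoxa7 (45.9% and 33.5%). In 876 cells of cluster 3, 132 with Hoxb13, Hoxb8 was found in 2.27% and 36.3% and Hoxa7 in 79.5% and 56%. In untreated goblet cells of the same depth, 287 of 307 had a Hoxb13 UMI. These are cells of 1 library and not replicates.

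**Figure D4:**
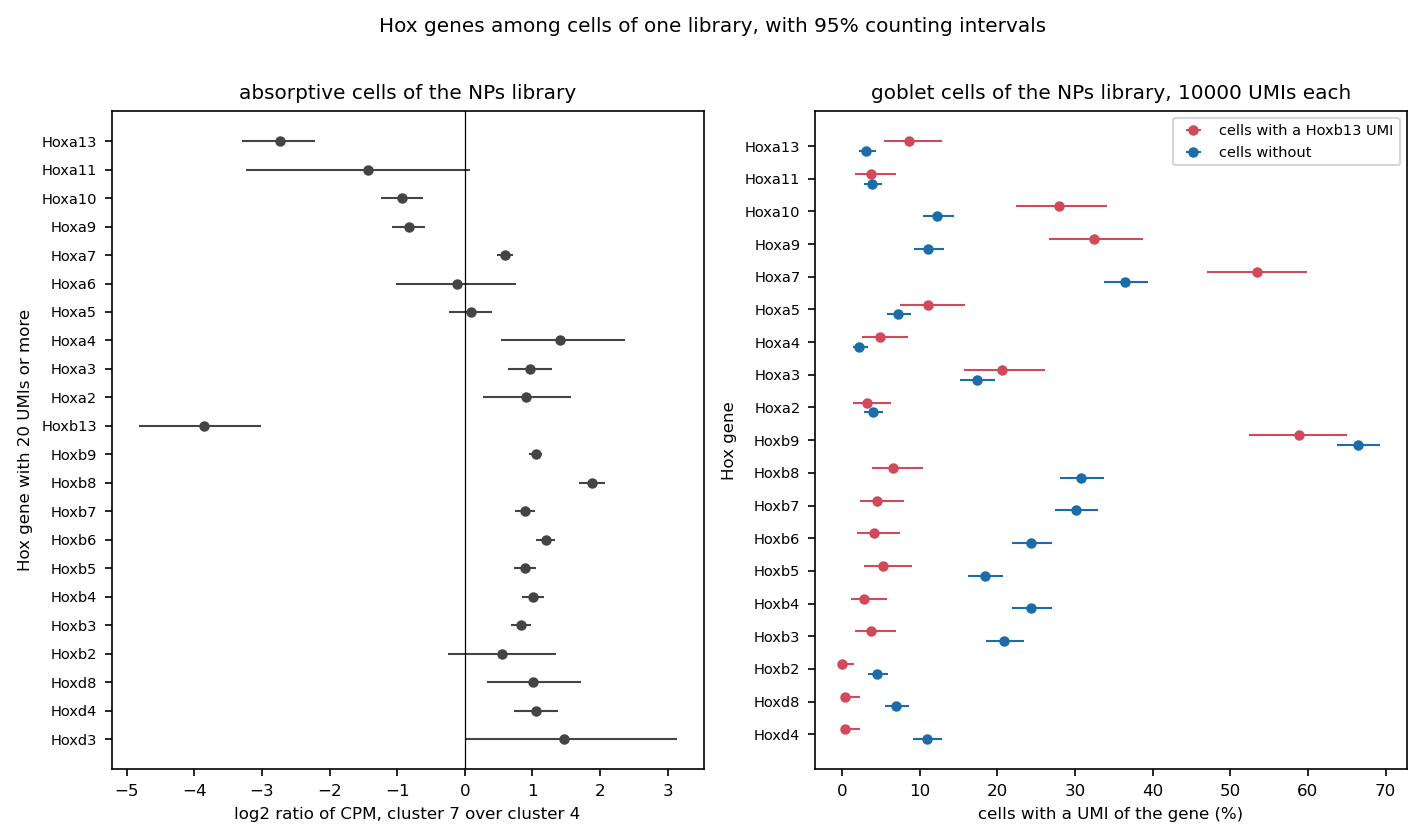
Left, ratio of cluster 7 to cluster 4 among absorptive cells of the NPs library on a log2 axis; right, percent of NPs goblet cells thinned to 10000 UMIs that hold a UMI of each gene, for the 243 cells with and the 1112 cells without a Hoxb13 UMI; bars are 95% counting intervals. On the left Hoxb13 (14.4-fold lower) and Hoxa13 (6.67-fold lower) stand apart from Hoxb8 (3.69-fold higher), and on the right Hoxb8 (6.58% against 30.8%) and Hoxa9 (32.5% against 11.1%) separate the cells in opposite directions.

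Fibroblasts and endothelial cells had their own sets of members, of which Hoxd9, Hoxd8 and Hoxb2 in the NPs library stood at higher levels than in absorptive, goblet and enteroendocrine cells. The interval of Hoxd8 in fibroblasts overlapped that in enteroendocrine cells, which had 1 UMI of it. Untreated fibroblasts numbered 45, under the 50 set for a ratio, so levels are given side by side for them. Hoxa10, which patterns the trunk and limb mesenchyme, was at 58.2 CPM in untreated fibroblasts (14 UMIs, 31.8 to 97.6) and 62.1 CPM in the 197 NPs fibroblasts (65 UMIs, 47.95 to 79.2), above absorptive and goblet cells but not above enteroendocrine cells (63.4 and 73.6 CPM). Hoxd11 was at 24.9 CPM (6 UMIs) and 23.9 CPM (25 UMIs) in the same cells, whereas it was at 17.8 and 0.0448 CPM in the absorptive cells of the 2 libraries. NPs fibroblasts also had Hoxb2 at 22.9 CPM (24 UMIs), Hoxd9 at 17.2 CPM (18 UMIs), Hoxd8 at 16.3 CPM (17 UMIs) and Hoxa11 at 12.4 CPM (13 UMIs), against 0.0448 to 1.81 CPM in the absorptive cells of that library. Hoxb13 was at 62.3 CPM in untreated fibroblasts (15 UMIs), which was 18.3% of the absorptive level (10.2 to 30.2%), and a list of 10 epithelial genes stood there at a median of 16.4%. In NPs fibroblasts it had 1 UMI. HoxC was at 8.31 CPM in untreated fibroblasts (2 UMIs) and 11.5 CPM in NPs fibroblasts (12 UMIs), against 0 to 1.89 CPM in the absorptive, goblet and enteroendocrine cells.

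The 182 NPs endothelial cells, which line blood vessels, had Hoxa7 at 67.2 CPM (39 UMIs, 47.8 to 91.9) and Hoxb4 and Hoxb9 at 44.8 CPM each (26 UMIs). Goblet cells of that library had Hoxa7 at 67.5 CPM, and absorptive cells had Hoxb9 at 86.9 CPM, so Hoxa7 and Hoxb9 were not above all epithelial classes. Hoxa5, known to restrain vessel growth, was at 39.6 CPM (23 UMIs), which was 516% of the absorptive level (323 to 787%), and enteroendocrine cells had 41.5 CPM of it (541%). Hoxd8 was at 31.0 CPM (18 UMIs, 18.4 to 49.0), and Hoxb2 and Hoxd9 were at 18.96 CPM each (11 UMIs). The 10 epithelial genes stood at a median of 15.1% of their absorptive level in these cells. Of untreated endothelial cells 9 were kept, with 4 HoxC UMIs among them (3 of Hoxc10), and no comparison was made.

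In untreated lymphocytes Hoxb13, Hoxa13 and Hoxd13 had a few percent of their absorptive level, near that of epithelial genes. Other members, posterior ones among them, stood higher against this absorptive reference. In untreated B cells, which should lack posterior Hox genes, Hoxb13 was at 12.6 CPM (135 UMIs), 3.70% of the absorptive level (3.10 to 4.39%), and the 10 epithelial genes were at 1.90 to 3.90%. In untreated T cells Hoxb13 was at 4.51% (3.81 to 5.30%), with an epithelial median of 3.09% and a highest epithelial gene at 6.56%. Hoxb9 was at 15.4% there (9.86 to 22.97%), Hoxa10 at 12.5% (7.35 to 20.0%) and Hoxa9 at 12.45% (7.43 to 19.7%). Hoxa10 was at 13.95% (8.66 to 21.4%) and Hoxa5 at 26.8% (15.3 to 44.0%) of the absorptive level in B cells. The absorptive reference was low for these members: untreated goblet cells had Hoxb9 at 281%, Hoxa9 at 220%, Hoxa10 at 214% and Hoxa5 at 190% of it. Whether lymphocytes held these members beyond epithelial RNA was not tested. Hoxb4, which acts in blood stem cells, was at 2.15 CPM in untreated B cells (23 UMIs), 293% of the absorptive level (157 to 546%), and at 1.33 CPM in T cells (13 UMIs), 181.5% (84.5 to 374%). Untreated mast cells or basophils (366 cells) had Hoxb13 at 54.8% of the absorptive level (47.4 to 63.0%), Hoxa9 at 137% (85.8 to 207.5%) and Hoxd13 at 74.2% (47.8 to 110.2%), and the epithelial genes there had a median of 33.2%. In NPs T cells the epithelial genes were at 14.8 to 60.2%, with a median of 24.4%, and Hoxb4 was at 65.4% (40.3 to 100.4%).

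Epithelial RNA was thus present in the immune classes of both libraries at different levels, and its part in the following ratios was not tested. In T cells (2742 and 320 cells) 6 of 8 measured members were at least 2-fold higher in the NPs library and 1 lower, against 16.4% and 6.65% of all genes. Hoxb9 was 10.4-fold (5.87 to 18.5) and Hoxb4 14.5-fold higher (6.91 to 31.4), and Hoxb13 4.19-fold lower (1.60 to 15.6) on 150 and 4 UMIs. The log2 ratio of Hoxb9 there was 3.375, or 0.81 with no mitochondrial limit, and that of Hoxb13 was -2.07, or -0.66 in cells thinned to 1000 UMIs, both then under 2-fold. In plasma cells 1 of 6 was higher and 3 were lower, against 4.77% and 13.8% of all genes. There Hoxb13 had 178 and 0 UMIs, at least 23.8-fold lower. In macrophages or monocytes 2 of 3 were higher (Hoxa7 and Hoxb9) and 1 lower (Hoxb13, 7.77-fold, 3.10 to 22.0), against 16.5% and 9.12% of all genes.

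In the brain Hox transcripts were rare and came from the head-end members. In both libraries together 16 members had 0 UMIs, namely Hoxa10, Hoxa11, Hoxa13, Hoxb8, Hoxb13, Hoxc8 to Hoxc13 and Hoxd9 to Hoxd13. The 5 leading members were Hoxb4 (102 UMIs in the untreated and 110 in the NPs library), Hoxd4 (42 and 42), Hoxa3 (26 and 26), Hoxb2 (23 and 23) and Hoxb3 (25 and 15). Their levels over all kept cells were 0.243 to 1.78 CPM, and most members had similar UMI numbers in the 2 libraries. In astrocytes, the support cells of the nervous tissue, Hoxd4 was at 1.22 and 1.03 CPM (ratio 0.846, 0.450 to 1.57), Hoxa3 at 0.903 and 1.08 CPM (1.20, 0.618 to 2.33), Hoxb2 at 0.858 and 0.979 CPM (1.14, 0.572 to 2.28), Hoxb4 at 0.993 and 0.567 CPM (0.571, 0.2499 to 1.23) and Hoxb3 at 0.722 and 0.309 CPM (0.428, 0.137 to 1.15). All 5 intervals included 1.

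These transcripts sat in part of the astrocytes. Clusters 4 and 5, both led by Slc6a11 and Agt, held 93.3% of the Hox UMIs of untreated astrocytes (152 of them, in 1682 cells) and 94.9% of those of NPs astrocytes (130 in 1784 cells). The other astrocyte clusters held 11 and 7 Hox UMIs in 2479 and 2271 cells. Hoxd4 was at 3.53 CPM in these clusters in the untreated library (27 UMIs) with 0 UMIs in the others, and at 2.48 CPM (18 UMIs) against 0.165 CPM (2 UMIs) in the NPs library. Hoxa3 was at 2.62 CPM (20 UMIs) with 0 UMIs in the others, and at 2.75 CPM (20 UMIs) against 0.0824 CPM (1 UMI). The clusters were formed without the Hox genes but were picked here after their Hox levels were seen, so these values are a description.

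Microglia, the resident macrophages of the brain, showed Hoxb4 without most of the other members. It was at 1.78 CPM in the untreated library (50 UMIs in 49 of 5347 cells, 1.32 to 2.34) and 2.41 CPM in the NPs library (80 UMIs in 75 of 6530 cells, 1.91 to 3.00), a ratio of 1.36 (0.943 to 1.98). Hoxd4 was at 0.320 and 0.573 CPM (9 and 19 UMIs, ratio 1.79, 0.773 to 4.50). Hoxa9, with 0 UMIs in the untreated brain, had 5 in a single cell among the NPs microglia. The highest brain level was Hoxb4 in unnamed cluster 15, led by Igkc, Cd74, Lyz2 and Plac8, at 21.4 CPM in the untreated library (21 UMIs in 15 of 135 cells, 13.2 to 32.6) and 6.26 CPM in the NPs library (6 UMIs, 2.30 to 13.6).

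**Figure D5:**
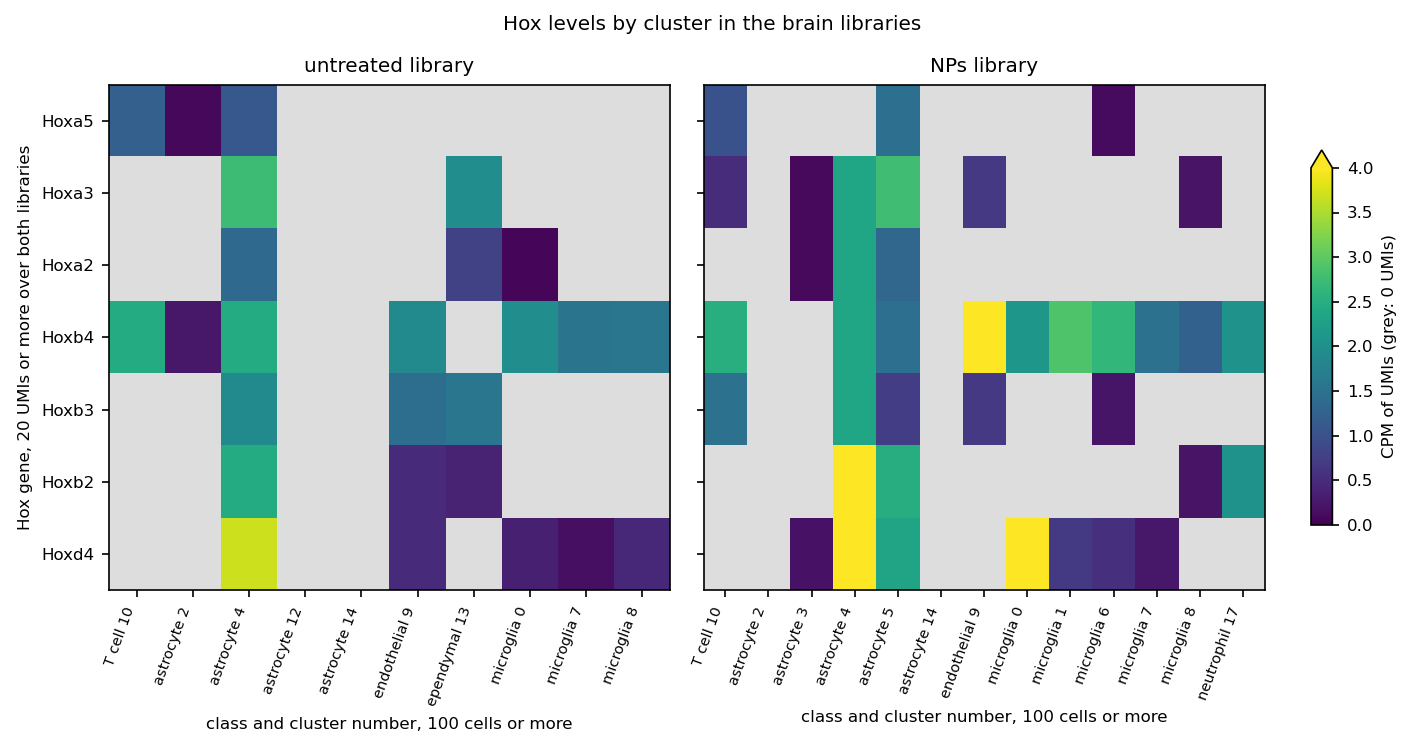
Level of Hox genes with 20 UMIs or more over both brain libraries, in CPM of UMIs, with 0 UMIs in grey and the scale ending at 4 CPM. Columns are clusters with 100 cells or more of astrocytes, microglia, ependymal cells, endothelial cells, T cells and neutrophils. Choroid plexus epithelium and oligodendrocytes were not drawn, the latter with HoxD at 5.52 CPM (5 UMIs) in the untreated and 5.69 CPM (2 UMIs) in the NPs library. Unnamed clusters were not drawn either, among them cluster 15 with 21 UMIs of Hoxb4 in its 135 untreated cells. Colour fills most rows in astrocyte clusters 4 and 5, whereas Hoxb4 (1.78 and 2.41 CPM over all microglia) is the row that runs through the microglia of both libraries.

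The genes that act around the Hox clusters were taken from 4 lists, and most of those measured in epithelial cells lay within 2-fold. Of the embryonic inducers and the related ParaHox genes, 9 of 17 were measured in absorptive cells, 4 at least 2-fold higher and 3 lower. In goblet cells 3 of 8 were higher and none lower. Of all measured genes 33% were higher and 10.2% lower in absorptive cells, and 14.6% and 7.79% in goblet cells, which is the background for the counts of all 4 lists. Cdx2, which drives hindgut identity and opens the Hox clusters, was at 66.9 CPM in untreated absorptive cells and 262 CPM in the NPs library, 3.91-fold higher (3.73 to 4.09), and 6.43-fold higher in goblet cells (5.73 to 7.24). Cdx1 was 2.25-fold higher in absorptive cells (2.15 to 2.37) and at 152 and 144 CPM in goblet cells. Aldh1a1, which makes retinoic acid, was at 8.74 and 184 CPM in absorptive cells, 21.04-fold higher (18.65 to 23.8). Of the retinoic acid receptors, Rxra and Rara were 1.55- and 1.58-fold higher there, and Rarg, with 12 and 232 UMIs, 13.6-fold higher (7.62 to 26.6) and 6.52-fold higher in goblet cells. The 3 lower genes were Aldh1a3, Gdf11 and Pdx1.

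Of the Hox cofactors 5 of 9 were measured in absorptive cells, and 1 of them was at least 2-fold higher and none lower. Pbx2, Pbx3 and Pknox1 were 1.26- to 1.504-fold higher. In goblet cells 1 of 6 was, Meis2, with 2 and 27 UMIs (ratio 4.34, 1.09 to 37.7). All 20 Polycomb and Trithorax genes were measured in absorptive cells, where 6 were at least 2-fold higher and none lower, and in goblet cells, where Ring1 was higher and none lower. Neither count of higher genes was above the share over all genes. Ezh2, which writes the repressive mark on histone H3, was at 16.2 and 35.5 CPM in absorptive cells, 2.19-fold higher (1.98 to 2.43). Kmt2a, which opposes it, was 1.98-fold higher (1.83 to 2.14). Suz12, Kdm6b and Jarid2 were 1.64-, 1.53- and 1.11-fold higher. Of the gut region genes 5 of 12 were measured, and in absorptive cells Hnf4g was 2.09-fold higher (1.92 to 2.28). Hnf4a was 1.35-fold lower, and Gata6 was 1.92-fold higher. In goblet cells none of the 5 passed 2-fold, Foxa2 being at 54.7 and 40.2 CPM. The median log2 ratios of the 4 lists in absorptive cells were 0.40 to 0.74, against 0.56 for all genes.

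Some members share exonic bases with other counted genes, and their counts are less certain. On the same strand Hoxd3 and Hoxd4 overlap each other and Gm28230 (53.1% of the exonic bases of Hoxd3 and 39.1% of those of Hoxd4), Hoxd10 and Hoxd11 overlap Gm28309, Hoxa2 and Hoxa3 overlap Gm28308, Hoxa9 overlaps Mir196b, and Hoxc5 and Hoxc10 overlap each other. On the opposite strand 10 members share exonic bases with another gene, and the sources used here do not say whether the counting used the strand. Hoxb13 and Hoxd13 share none with any counted gene on either strand.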

How the data were processed

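Single cells of mouse intestine and brain were profiled with 10x 3′ chemistry in 4 libraries. The authors deposited whole-number UMI counts per gene and cell, made with Cell Ranger 5.0.1 per the file headers, on GRCm38 per the submitters' processing notes. From these counts, cells were used if they had 500 UMIs and 200 genes or more and a mitochondrial share of 20% or less. Doublets were scored with Scrublet in scanpy 1.11.5. Its own threshold marked 0.00516% and 0% of intestinal cells, so a score of 0.25 was used there. Clusters were formed per tissue by the Leiden method without the Hox genes and named from marker lists. UMIs were summed per class and library, and classes with at least 50 cells in both libraries were compared. A gene was measured at 20 UMIs over both libraries and called at 2-fold. Levels carry exact Poisson and ratios and shares of cells exact binomial (Clopper-Pearson) 95% intervals, which cover counting error only. A level of 0 UMIs was replaced by 3 counts, and ratios given as at least a fold rest on this and are not interval limits. The computation of ratios, their intervals and the calls was tested on simulated counts, and the other steps were not. Members and gene lists were chosen with earlier results of these data known. The named members are the 4 with most UMIs in each cluster, the 3 with the largest and the 3 with the smallest ratios in a class, and the 5 with most UMIs in brain. Others are given by range or were named after their values were seen. Comparisons of clusters within a library, and the values of Hox pairs in cells, were chosen after the data were seen. Of the alternatives, 16 settings were tried. Promoters came from a RefSeq table, and protein sequences were not used here. A few genes that enter the totals are not reported here.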

Additional observations from a re-analysis of the deposited data

Results flagged for a closer look

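Hoxa13 differed between cell classes in the direction of its ratio, and this difference was not tested. Its log2 ratio of the NPs to the untreated library was 1.161 in T cells, against -2.439 in absorptive, -1.812 in goblet and -1.376 in enteroendocrine cells. The T cell value rests on 16 untreated and 4 NPs UMIs, and its interval, 0.544 to 6.93 as a ratio, includes 1.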

How the results depend on the processing

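Of 1138 ratios of single Hox genes under an alternative, 1085 kept their direction and their side of the 2-fold line, 25 lost the call, 22 gained one and 6 reversed. In absorptive cells the count of higher Hox genes went from 16 to 10 when cells were thinned to 1000 UMIs, which leaves fewer genes measured, and the counts there and in goblet cells otherwise stayed within 1.5 times. Thinning took the count over all genes in absorptive cells from 5028 of 15251 higher to 2716 of 10406. The small classes moved most. With at most 10% mitochondrial UMIs, 2 Hox genes were higher in T cells, 2 higher and 1 lower in plasma cells, and the log2 ratio of Hoxa11 in absorptive cells was -0.2647. The other lists then gave 6 higher and 5 lower in absorptive cells, against 12 and 3. All genes gave 1822 higher and 2027 lower of 15514 there, against 5028 and 1561 of 15251. In T cells 1321 of 11562 genes were then higher, and in plasma cells 553 of 7920 were higher and 778 lower. With no mitochondrial limit 5 Hox genes were lower in T cells, beside 900 of 13530 genes. Log2 ratios there were -1.474 for Hoxa13, -1.715 for Hoxa10 and -1.654 for Hoxa9. At resolution 2, T cells had 2 higher and macrophages 0, beside 1328 of 11617 and 1247 of 7843 genes. With libraries clustered separately plasma cells had 2 higher, beside 1439 of 8997 genes, and Hoxa10 was at a log2 ratio of 0.2445 there. With Hox genes allowed for clustering plasma cells also had 2 higher, beside 1110 of 9398 genes. A minimum of 10 UMIs gave 10 higher in T cells, 4 in macrophages and 3 in plasma cells. Beside these stood 2740 of 13639, 1812 of 10537 and 764 of 10568 genes. A minimum of 50 UMIs gave 2 higher in T cells, 3 higher and 1 lower in enteroendocrine cells, 0 and 0 in macrophages, and 0 and 1 in plasma cells. All genes gave 1222 of 9899 higher in T cells, and 422 higher and 131 lower of 3227 in enteroendocrine cells. They gave 700 and 388 of 5269 in macrophages and 152 and 630 of 5262 in plasma cells. At 3-fold 1 was lower in enteroendocrine cells and 0 higher in plasma cells, beside 158 of 6723 and 110 of 8548 genes. At 1.5-fold the other lists gave 24 higher in absorptive cells and 9 in goblet cells, beside 7448 of 15251 and 4211 of 15547 genes. As a mean over cells Hoxa13 in T cells was at a log2 ratio of -0.9674, and the other lists gave 12 higher and 2 lower in goblet cells, against 5 and 0. Over all 15547 genes of goblet cells 4332 were then higher and 1341 lower, against 2275 and 1211. Under 9 settings 1 gene of the other lists was lower in goblet cells: at most 10% mitochondrial UMIs, no mitochondrial limit, at least 1000 UMIs per cell, resolution 2, separate clustering, Hox genes allowed, a minimum of 10 UMIs, 1.5-fold, and centring on the median of all genes. Thinned to 1000 UMIs, T cells had 0 higher and 0 lower, enteroendocrine cells 1 and 1, macrophages 0 and 0, plasma cells 0 and 1, and the other lists had 0 lower in absorptive and 15 higher in goblet cells. All genes then gave 1089 and 642 of 8799 in T cells and 193 and 201 of 1146 in enteroendocrine cells. They gave 487 and 313 of 2809 in macrophages and 198 and 1129 of 3081 in plasma cells. In absorptive cells 904 of 10406 genes were lower, and in goblet cells 2521 of 11094 were higher. Except for thinning and the changed minimum and fold, the cause was not tested. Enteroendocrine cells gave no value under 6 settings, plasma cells none with no mitochondrial limit, and macrophages none when libraries were clustered separately. No paired analysis was possible because each group had 1 library. For the same reason the precision is that of counting, and a Hox gene with 0 UMIs may be present below 3 counts of its class.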
